A study of Mus musculus with 6 samples.

Results

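The subunits of the respiratory chain and of ATP synthase were examined in 6 RNA-seq libraries of M1, a mouse neuroblastoma cell line. Members were the protein-coding genes whose GENCODE symbols begin with Nduf and a subunit letter and number, Uqcr, Cox4 to Cox8, Atp5 or mt-, together with Sdha, Sdhb, Sdhc and Sdhd. This took 97 of the 43629 mouse genes in the count table, of which 84 lie in the nuclear genome and 13 in the mitochondrial genome. The rule used symbols only and no measured value.

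In 3 libraries the cells, with the genotype given as WT, carried a non-targeting hairpin (shNT), and in 3 they carried a hairpin against Igf2bp1 (shIGF2BP1), with the genotype given as an IGF2BP1 knockdown. All 6 received doxycycline at 4 to 6 µg/ml for 6 days to induce the hairpin. The labels give 1 cell line and 1 hairpin against Igf2bp1 and do not say that the replicates were separate cultures, so the p-values measure only the spread between these libraries, which may be technical. The comparison asks what the knockdown does to the transcripts of these cells.

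The chain passes electrons from NADH and succinate through complexes I to IV to oxygen, and the proton gradient it builds drives ATP synthase, complex V. All complexes except complex II are built from proteins of both genomes, so nuclear and mitochondrial transcripts have to be supplied together. Mitochondrial transcripts are cut from long precursors of the heavy and the light strand, while the nuclear genes are spread over many chromosomes and are served by factors such as NRF1, GABPA and YY1.

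Library totals ran from 25119655 to 35373076 counts, and 13445 genes passed the filter on low counts. The targeted gene itself had 37, 175 and 201 counts in shNT and 67, 35 and 311 in the libraries labelled shIGF2BP1, where its mean was not the lower one (Igf2bp1, edgeR log2 fold change 0.25, Benjamini-Hochberg adjusted p = 0.966), so directions below compare libraries by their labels. That sign rested on single libraries and on the model. The value was -1.24 without shIGF2BP1 replicate 3, which held 311 of its counts, and -0.18 without shNT replicate 1. With all 6 libraries it was also negative with limma-voom (-0.24) and with the replicate number as a block (-0.05). Among markers of sympathetic neuroblastoma, Th and Dbh had 0 counts in all 6 libraries and Phox2a had 1 count in all, while Hand2, Gata2, Gata3, Isl1 and Mycn were present and Ddc was low. shNT replicates 1 and 3 stood at opposite ends for the respiratory chain genes (48 of 78 tested nuclear subunits had their lowest CPM in replicate 3 and 48 their highest in replicate 1). The nuclear and mitochondrial medians, and the named members that moved most without single libraries, are given with those values. Medians of single complexes and of the further lists are given from all 6 libraries only, so their dependence on single libraries is not shown. In bulk RNA, fewer cells of a type and less RNA per cell cannot be told apart.

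Levels are given as CPM, a gene's counts relative to the library total after TMM scaling, and, where genes are compared with each other, in CPM per kilobase of exon. Differences are log2 fold changes of the libraries labelled shIGF2BP1 over shNT from edgeR, so a positive value means higher in the libraries labelled shIGF2BP1. A member was called where the Benjamini-Hochberg adjusted p over all 13445 genes was under 0.05.

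Of the 97 members 91 were tested, all 13 mitochondrial ones and 78 of the 84 nuclear ones. None was called by edgeR, where 0.0223% of all tested genes were called. At an unadjusted p under 0.05, 1 member passed, Ndufa12, which was lower; 7.16% of all tested genes passed that mark, 3.99% lower and 3.17% higher. DESeq2 also put 1 member past that mark and called it after adjustment, and limma-voom called 0. Sdhb was the only tested member whose 3 libraries labelled shIGF2BP1 all lay above the 3 shNT libraries, and Ndufa12 the only tested one where all lay below (6.06% and 5.59% of all tested genes did so).

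Most log2 fold changes were small and positive. The sign was positive for 54 and negative for 24 of 78 nuclear members (48.5% and 51.5% of all tested genes), with a median of 0.08, against a median of -0.01 over all genes. For the mitochondrial members it was positive for 11 of 13 with a median of 0.33. Both medians depended on single shNT libraries. Without shNT replicate 3 the nuclear median was -0.005 and the mitochondrial median 0.12, and without shNT replicate 1 they were 0.29 and 0.65. In that last fit 18 members passed an unadjusted p under 0.05, 17 of them higher, where 13.3% of all genes did, and 0 were called.

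**Figure D1:**
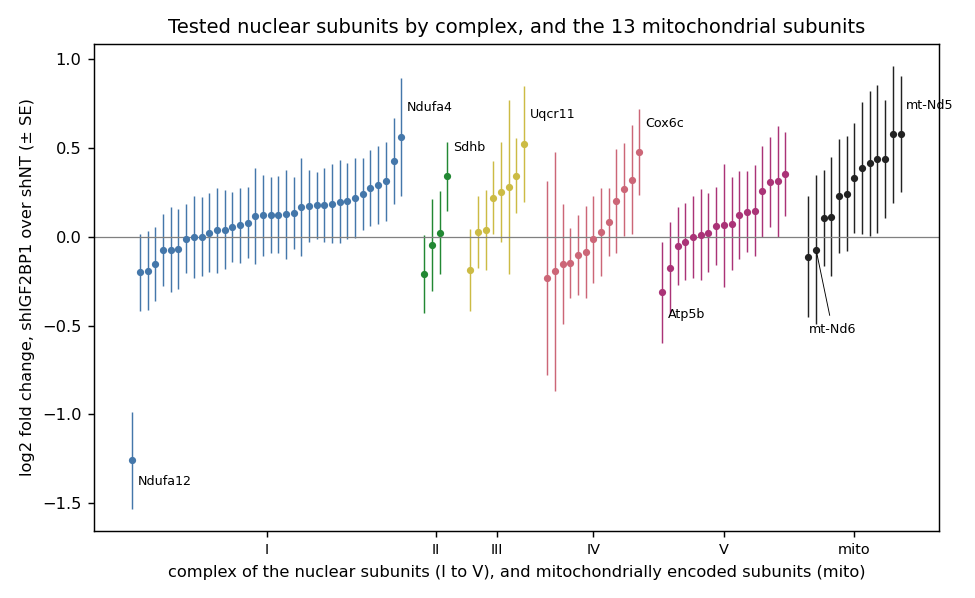
Each point is the edgeR log2 fold change of 1 tested subunit (vertical axis, bars ± SE), grouped along the horizontal axis by complex for the 78 nuclear genes and with the 13 mitochondrial genes (mito) at the right. Ndufa12 stands at -1.26, far below the other nuclear subunits, and 11 of the 13 mitochondrial points lie above 0.

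The nuclear subunits moved together from library to library, and the order of the libraries did not follow the labels. shNT replicate 3 was the lowest library for 61.5% of the 78 tested nuclear subunits and shNT replicate 1 the highest for 61.5%, against 23.6% and 18.1% of all tested genes. The median deviation of a nuclear subunit from its own mean, on the log2(CPM + 0.5) scale, was 0.29, -0.15 and -0.28 in shNT replicates 1 to 3. In the libraries labelled shIGF2BP1 it was 0.09, -0.04 and 0.13, so the shNT group held both extremes and the other group lay between them.

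Short transcripts took part in this spread whether or not they belonged to the chain. The 40 nuclear subunits with under 1000 exon bases had median deviations of 0.32, -0.18 and -0.31 in shNT, and the 38 longer ones had 0.27, -0.09 and -0.26. In 425 other tested protein-coding genes with under 1000 exon bases the medians were 0.25, -0.11 and -0.18. The part of transcript length or RNA quality in the difference between the shNT libraries was not tested.

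**Figure D2:**
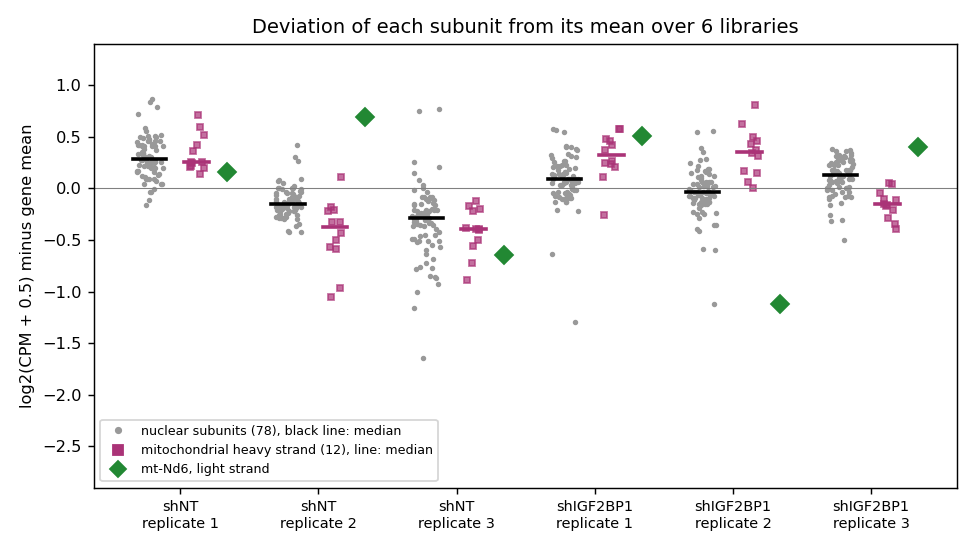
Points show each subunit's deviation from its own mean over the 6 libraries on the log2(CPM + 0.5) scale (vertical axis) for each library (horizontal axis), with nuclear subunits in grey, the 12 heavy-strand mitochondrial subunits in purple and mt-Nd6 in green; lines are medians. Nuclear and heavy-strand subunits are both high in shNT replicate 1 and low in shNT replicates 2 and 3, while mt-Nd6 is high in shNT replicate 2 and lowest in shIGF2BP1 replicate 2.

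Complex I, which takes electrons from NADH, had 36 tested nuclear subunits, of which 27 had a positive log2 fold change, with a median of 0.12. Ndufa12 (ENSMUSG00000020022; chr10:94198720-94221443, plus strand, GRCm38) encodes an accessory subunit of the peripheral arm and had the largest difference of all tested members. Its levels were 77.5, 53.7 and 74.0 CPM in shNT and 27.7, 19.6 and 38.5 CPM in the libraries labelled shIGF2BP1. The lowest shNT library was above the highest library labelled shIGF2BP1, and no other tested complex I subunit separated the groups.

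The Ndufa12 means were 68.4 ± 12.9 and 28.6 ± 9.49 CPM (SD, n = 3 each), which is 2.39-fold lower. The log2 fold change was -1.26 ± 0.27 (SE; 95% interval -1.86 to -0.66). From edgeR's quasi-likelihood test its unadjusted p was 0.000775 and its adjusted p 0.316. The gene was called by DESeq2 (Benjamini-Hochberg adjusted p = 0.0101) and by edgeR with no filter on low counts (0.000588). Without 1 library at a time the edgeR adjusted p ran from 0.208 to 1, and the log2 fold change over all alternatives ran from -1.53 to -1.04.

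No annotated gene overlaps Ndufa12. The nearest gene before it on the same strand, Nr2c1, an orphan nuclear receptor, had a log2 fold change of -0.54, and Vezt, a cell junction protein, had -0.22. Fgd6 and Tmcc3, on either side within 300000 bases, had 0.48 and 0.62. None of these 4 neighbours was called.

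The promoter of Ndufa12 is shown because its gene departed most from the other subunits, beside those of Sdhb and of Uqcr11, the nuclear complex III subunit with the largest positive value. Each is the reference sequence from 250 bases before to 50 bases after the RefSeq transcript start in GRCm38, in the direction of the gene, at chr10:94198785-94199084, chr4:140961021-140961320 and chr10:80406772-80407071. Capitals mark letters of the NRF1 or GABPA motif on either strand.
Ndufa12: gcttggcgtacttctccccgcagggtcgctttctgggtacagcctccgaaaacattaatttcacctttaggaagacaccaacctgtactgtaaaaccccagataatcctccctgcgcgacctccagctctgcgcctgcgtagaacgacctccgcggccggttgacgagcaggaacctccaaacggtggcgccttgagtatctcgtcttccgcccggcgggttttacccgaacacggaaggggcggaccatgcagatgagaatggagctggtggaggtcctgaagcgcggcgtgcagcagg
Sdhb: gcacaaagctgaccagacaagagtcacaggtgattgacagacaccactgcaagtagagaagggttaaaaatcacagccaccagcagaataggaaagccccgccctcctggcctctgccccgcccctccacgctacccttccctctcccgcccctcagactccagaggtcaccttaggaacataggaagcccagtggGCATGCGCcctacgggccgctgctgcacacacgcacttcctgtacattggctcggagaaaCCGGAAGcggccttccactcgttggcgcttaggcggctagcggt
Uqcr11: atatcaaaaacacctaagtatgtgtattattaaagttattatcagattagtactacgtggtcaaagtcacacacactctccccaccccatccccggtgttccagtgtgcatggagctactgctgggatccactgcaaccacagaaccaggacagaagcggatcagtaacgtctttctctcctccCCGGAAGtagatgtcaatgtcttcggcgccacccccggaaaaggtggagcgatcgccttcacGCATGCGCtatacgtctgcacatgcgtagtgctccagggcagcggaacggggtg

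The letters searched on both strands were GCGCATGC for NRF1, CCGGAAG for GABPA and AAGATGGCG for YY1, and an NRF1 match on one strand can overlap one on the other. RefSeq promoters were matched to 68 of the 84 nuclear members. NRF1 letters were in 10 of them (14.7%), against 3.05% of the promoters of all 27025 genes and 6.29% of 9212 tested genes that are no members. GABPA letters were in 23.5%, against 9.93% and 21.3%, and YY1 letters in 10.3%, against 1.64% and 3.79%. At least 1 of the 3 was in 39.7% of the member promoters, against 13.6% and 28.8%. The Ndufa12 window held none, which says only that these letters are not in it. That window begins at chr10:94198785, after the annotated gene start at chr10:94198720, so the sequence before the gene start was not searched.

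Ndufa4 had the highest level per kilobase of the nuclear symbols counted with complex I (254 CPM per kilobase); its protein was first assigned there and later found with complex IV. Its levels were 197, 122 and 66.3 CPM in shNT and 216, 160 and 192 CPM in the libraries labelled shIGF2BP1. The groups overlapped, and the log2 fold change of 0.56 ± 0.33 was not called (edgeR adjusted p = 0.779); it was 1.02 without shNT replicate 1 and 0.25 without shNT replicate 3. Ndufb3, an accessory subunit of the membrane arm, had 70.2, 55.8 and 37.6 CPM in shNT and 81.0, 70.3 and 68.8 CPM in the libraries labelled shIGF2BP1. Its log2 fold change was 0.43 (0.65 without shNT replicate 1, 0.22 without shNT replicate 3), and shNT replicate 3 was again the lowest. Ndufa7, also accessory and next to Ndufa4 in level, had 160, 98.0 and 98.2 CPM against 129, 116 and 111 CPM, with a log2 fold change of -0.002 that was 0.27 without shNT replicate 1 and -0.12 without shNT replicate 3.

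Complex II, succinate dehydrogenase, is made from 4 nuclear genes alone and links the chain to the citric acid cycle. Its iron-sulfur subunit Sdhb (chr4:140961203-140979193, plus strand) had 156, 135 and 138 CPM in shNT and 170, 163 and 209 CPM in the libraries labelled shIGF2BP1. The groups did not overlap, though the gap between 156 and 163 CPM was small. The log2 fold change was 0.34 ± 0.19 (edgeR adjusted p = 0.778), or 0.22 without shIGF2BP1 replicate 3. Sdha, the flavoprotein subunit that oxidises succinate, had the opposite sign, with 359, 341 and 340 CPM against 294, 245 and 363 CPM and a log2 fold change of -0.21, or -0.07 without shIGF2BP1 replicate 2. Sdhc and Sdhd, the membrane anchors, had -0.05 and 0.02.

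Complex III, which hands electrons from ubiquinol to cytochrome c, had 7 of 8 nuclear subunits with a positive value and a median of 0.24. Uqcrh, the hinge protein, had the highest level per kilobase of its nuclear subunits (333) and the widest spread between libraries of the tested nuclear members. It had 290, 154 and 50.6 CPM in shNT and 236, 235 and 129 CPM in the libraries labelled shIGF2BP1, so its highest and lowest libraries, which differed 5.73-fold, were both shNT. Its log2 fold change was 0.28 ± 0.49, and it turned to -0.15 when shNT replicate 3 was left out and reached 0.98 when shNT replicate 1 was. Uqcr11, a small subunit, had 110, 59.1 and 39.5 CPM against 119, 89.6 and 92.1 CPM (log2 fold change 0.52, or 0.24 without shNT replicate 3 and 1.03 without shNT replicate 1). Uqcrc2, a core protein, had 148, 169 and 112 CPM against 175, 169 and 200 CPM (0.34, or 0.19 without shNT replicate 3 and 0.48 without shNT replicate 2). Uqcr10 was nearly level, at 122 ± 22.3 and 124 ± 12.3 CPM (SD, n = 3 each).

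Complex IV, cytochrome c oxidase, had values on both sides of 0, with 6 positive and 7 negative of 13 tested and a median of -0.02. Cox4i1, its most abundant nuclear subunit per kilobase (498), had 501, 343 and 305 CPM in shNT and 396, 344 and 397 CPM in the libraries labelled shIGF2BP1. The groups overlapped fully and the log2 fold change was -0.02 ± 0.24, from -0.16 without shNT replicate 3 to 0.23 without shNT replicate 1. Cox8a had 231 ± 32.6 and 208 ± 10.1 CPM (SD, n = 3 each). Cox6c had 127, 112 and 69.9 CPM against 157, 124 and 148 CPM, and its log2 fold change of 0.48 ± 0.24 had the smallest p of the complex (0.0734; edgeR adjusted p = 0.746). That value was 0.66 without shNT replicate 1 and 0.26 without shNT replicate 3. It overlaps Vps13b on the other strand; no strand setting of the counting is given in the sources used here, so reads of the 2 genes may not be told apart.

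Several complex IV subunits have a form for most tissues and a form for heart and muscle, lung or testis. The cells held the widespread forms. Cox4i2, Cox6b2, Cox8b and Cox8c had 0 counts in all 6 libraries, which allows at most 0.0851 to 0.114 CPM per library, and Cox7b2 had 1 count in shIGF2BP1 replicate 2. Cox6a2, the heart and muscle form, had 3.34, 2.91 and 6.11 CPM in shNT and 1.11, 5.25 and 4.12 CPM in the libraries labelled shIGF2BP1, against 205 ± 58.3 and 208 ± 36.6 CPM (SD, n = 3 each) for its widespread counterpart Cox6a1. Cox7a1, likewise of heart and muscle, reached at most 0.851 CPM, where Cox7a2 had 92.7 ± 44.9 and 116 ± 9.58 CPM. Of 6 muscle markers Myl2 was at 0 in all libraries and no marker passed 14 counts in any library. The 5 haemoglobin and erythroid markers were at 0, and of 5 testis markers only Ldhc had counts, 2 in all.

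Ndufa4l2, a paralog of Ndufa4 known from hypoxic cells, was too low to be tested. It had 27, 8 and 17 counts in shNT and 2, 2 and 2 in the libraries labelled shIGF2BP1, and the lowest shNT library was above all of these. The ratio of pooled normalised counts, shNT over shIGF2BP1, was 7.96 with a 95% interval from 3.42 to 22.7 that covers counting error only, and it was 5.52 without shNT replicate 1 and 10.4 without shNT replicate 2. With no filter on low counts edgeR gave an unadjusted p of 0.00319 and an adjusted p of 0.187. The gene lies on the other strand of Shmt2, which had 80809 counts, so its value is uncertain.

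Complex V had 12 positive and 5 negative values of 17 and a median of 0.06. Atp5b, the catalytic beta subunit, was the most abundant nuclear member per kilobase (699). It had 1418, 1579 and 1458 CPM in shNT and 1129, 867 and 1589 CPM in the libraries labelled shIGF2BP1. Replicates 1 and 2 of the latter were below all shNT libraries and replicate 3 was above them, and the log2 fold change was -0.31 ± 0.29 (edgeR adjusted p = 0.879), from -0.58 without shIGF2BP1 replicate 3 to -0.12 without shIGF2BP1 replicate 2. Atp5h, of the peripheral stalk, had 283 ± 66.7 and 312 ± 20.4 CPM (SD, n = 3 each). Atp5j, also of the stalk, had a log2 fold change of 0.35 (0.58 without shNT replicate 1, 0.17 without shNT replicate 3) and overlaps Gabpa on the other strand. In all, 34 nuclear members overlap another annotated gene, 27 of them one on the other strand, and for 13 the overlapping gene had over 10% of the member's counts.

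**Figure D3:**
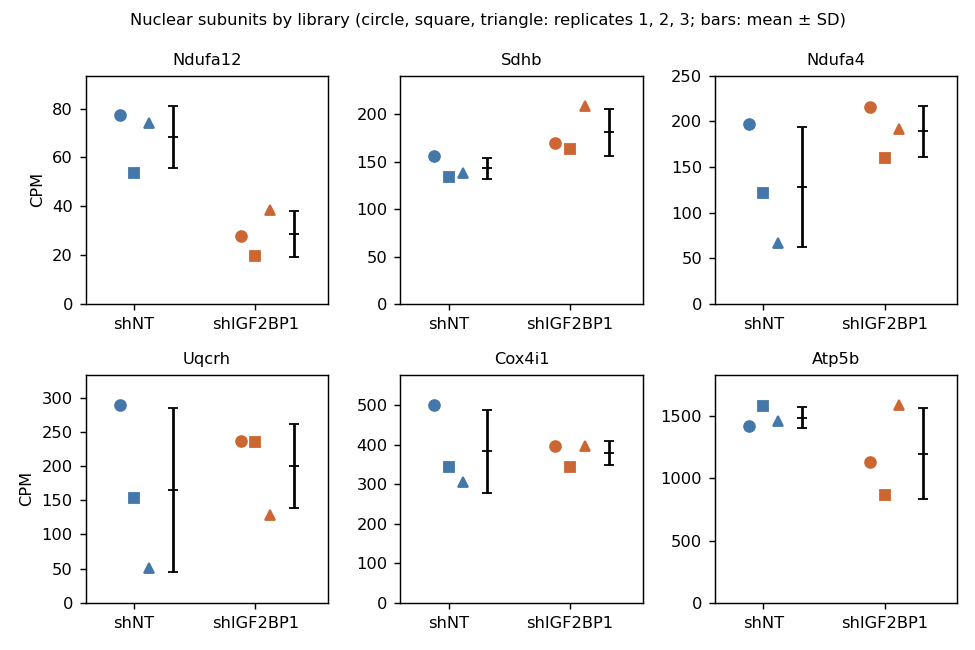
Panels give the CPM (vertical axis, from 0) of 6 nuclear subunits in each library by group (horizontal axis), with circles, squares and triangles for replicates 1, 2 and 3 and bars for the mean ± SD. Ndufa12 separates the groups from 53.7 down to 38.5 CPM, while Uqcrh spans 50.6 to 290 CPM within shNT alone.

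The 13 mitochondrial subunits took 3.04%, 2.12% and 2.24% of all counts in shNT and 3.20%, 3.57% and 2.42% in the libraries labelled shIGF2BP1. The 84 nuclear ones took 1.36%, 1.08% and 0.973% and 1.28%, 1.12% and 1.31%. Neither share separated the groups.

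The balance of the 2 genomes was followed as summed mitochondrial over summed nuclear CPM in each library. This ratio was 2.24, 1.97 and 2.31 in shNT and 2.51, 3.18 and 1.85 in the libraries labelled shIGF2BP1. Both the highest and the lowest value belonged to the libraries labelled shIGF2BP1, so the groups overlapped. On the log2 scale the means were 1.11 ± 0.12 and 1.29 ± 0.39 (SD, n = 3 each), a difference of 0.18 that is within the spread between replicates and fell to -0.01 without shIGF2BP1 replicate 2. With 3 libraries against 3 a two-sided exact permutation test cannot go below p = 0.1, and none was run. With 5 genes that share under 10% of their sequence with other annotated transcripts, mt-Nd1, mt-Nd2, mt-Nd5, mt-Nd6 and mt-Cytb, the ratio was 1.19, 0.835 and 1.17 against 1.61, 1.63 and 1.08, which still overlapped.

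**Figure D4:**
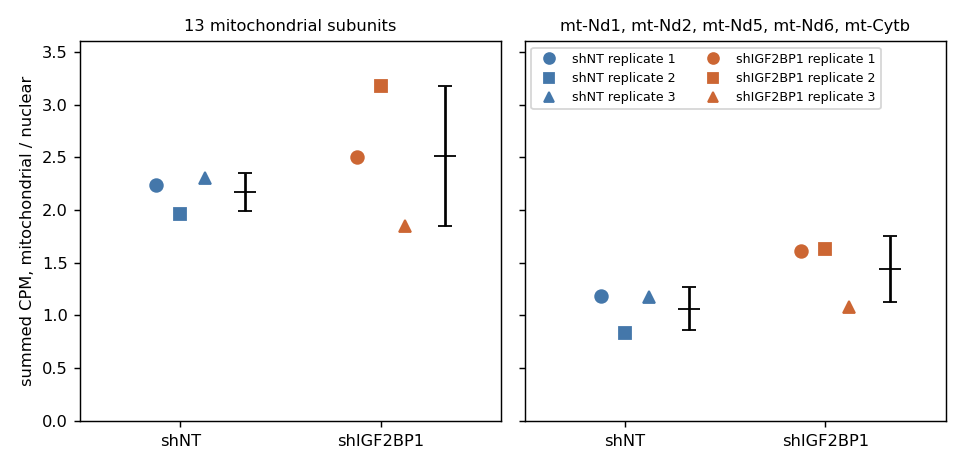
The vertical axis is the summed CPM of mitochondrial subunits divided by the summed CPM of nuclear subunits in each library, for all 13 mitochondrial genes (left) and for 5 with little shared sequence (right), by group; bars are mean ± SD. In the left panel the libraries labelled shIGF2BP1 span 1.85 to 3.18, around the shNT values of 1.97 to 2.31.

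Among the mitochondrial members mt-Co1, the catalytic core of complex IV, was highest, with 11950, 11080 and 9479 CPM in shNT and 8592, 13030 and 8428 CPM in the libraries labelled shIGF2BP1. It was 1 of 2 with a negative log2 fold change (-0.11 ± 0.34). mt-Cytb, the cytochrome b of complex III, had 5344, 2156 and 3968 CPM against 6656, 6299 and 4143 CPM. All 3 libraries labelled shIGF2BP1 were above shNT replicates 2 and 3, but replicate 3 was below shNT replicate 1, and the log2 fold change was 0.58 ± 0.38 (edgeR adjusted p = 0.813), with 0.89 without shNT replicate 1 and 0.29 without shNT replicate 2.

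Complex I has 7 mitochondrial subunits, which form the proton-pumping core of its membrane arm. mt-Nd5 had the smallest p of the 13 (0.102; edgeR adjusted p = 0.775), with 1456, 649 and 1101 CPM in shNT and 1742, 1746 and 1301 CPM in the libraries labelled shIGF2BP1. Its log2 fold change was 0.58 ± 0.32 (0.86 without shNT replicate 1, 0.32 without shNT replicate 2), and shNT replicate 1 lay inside the other group. mt-Nd1 had 4526, 2553 and 2910 CPM against 5641, 3949 and 3927 CPM (0.44, or 0.72 without shNT replicate 1 and 0.24 without shIGF2BP1 replicate 1). mt-Nd2 and mt-Nd4 had log2 fold changes of 0.33 and 0.39 with overlapping groups; mt-Nd2 reached 0.54 and mt-Nd4 0.71 without shNT replicate 1, and mt-Nd4 was 0.01 without shIGF2BP1 replicate 2.

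mt-Nd6 is the one subunit encoded on the light strand, and it did not follow the heavy-strand subunits in every library. The libraries were made from poly-A RNA, and the part of poly-A capture in the mt-Nd6 counts was not tested. Its log2 deviations from its own mean were 0.16, 0.69 and -0.65 in shNT and 0.51, -1.12 and 0.40 in the other group. The heavy-strand medians in the same order were 0.26, -0.38 and -0.39, then 0.32, 0.36 and -0.15. mt-Nd6 had 269, 388 and 154 CPM in shNT and 343, 110 and 318 CPM in the libraries labelled shIGF2BP1. Its highest library was shNT replicate 2, where the heavy-strand subunits were low, and its lowest was shIGF2BP1 replicate 2, where they were high. The highest was 3.52 times the lowest. Relative to the other 12 subunits it made up 0.018 of their summed CPM in shNT replicate 2 and 0.0032 in shIGF2BP1 replicate 2. The log2 fold change between the groups was -0.07 ± 0.42 (edgeR adjusted p = 0.983). Its sign depended on single libraries, with 0.28 without shNT replicate 2, 0.30 without shIGF2BP1 replicate 2 and -0.35 without shNT replicate 3. mt-Nd5 and mt-Nd6 lie on opposite strands and overlap at chrM:13552-13565, and how their reads were divided there is not given in the sources used here.

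A run of 6 neighbouring genes, mt-Co2, mt-Atp8, mt-Atp6, mt-Co3, mt-Nd3 and mt-Nd4l, stood far below the rest of the same chromosome. Their mean levels were 11.5 to 101 CPM per kilobase (median 40.7), against 508 to 6750 (median 4090) for the other 7 mitochondrial subunits and a median of 102 for the tested nuclear ones. mt-Co2 and mt-Co3, core subunits of the same oxidase as mt-Co1, had 101 and 39.1 CPM per kilobase where mt-Co1 had 6749. mt-Atp6 and mt-Atp8, the mitochondrial subunits of complex V, had 89.0 and 42.3. This held in all 6 libraries: the highest CPM of any of the 6 genes was 107, for mt-Co2 in shNT replicate 1.

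Most of this run has a copy in the nuclear genome. In the annotation 7 genes at chr1:24611535-24616197, on the minus strand, hold pieces of mt-Co1 to mt-Nd4. Their aligned bases were 100% identical to mt-Co2, mt-Atp6, mt-Co3, mt-Nd4l and mt-Nd4, 99.7% to mt-Nd3 and 98.8% to mt-Co1. The start of mt-Nd3, at chrM:9459-9518, and of its copy Gm28438, at chr1:24613060-24613119, are shown because the single base that tells them apart lies there. The capital marks that base, T3C, counted from the first base of mt-Nd3.
mt-Nd3: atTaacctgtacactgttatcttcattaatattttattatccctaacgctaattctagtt
Gm28438: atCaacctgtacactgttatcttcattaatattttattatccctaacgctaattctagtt

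The reads had 53 bases at each end, so each mitochondrial transcript was cut into all its windows of 53 bases and these were searched in the other annotated transcripts. For mt-Co2, mt-Atp6, mt-Co3, mt-Nd3 and mt-Nd4l 98.0% to 100% of the windows were found elsewhere. For mt-Nd4 it was 62.1%, for mt-Co1 49.6%, for mt-Nd2 7.81% and for mt-Nd5 6.49%. mt-Nd1, mt-Nd6 and mt-Cytb had none. mt-Atp8 also had none, but its place in the nuclear copy falls in a stretch of 233 bases between Gm10925 and Gm28661 with no annotated gene, and the sequence of that stretch was not examined here.

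mt-Atp8 overlaps mt-Atp6 at chrM:7927-7969, and both are read from the same stretch in different frames. It is shown because reads on it belong to both genes; the capitals mark the start codon of mt-Atp6.
mt-Atp8 and mt-Atp6: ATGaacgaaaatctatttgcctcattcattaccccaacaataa

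HTSeq, the counter named in the submitters' processing notes, leaves out reads that align to several places unless told otherwise, and the setting used is not given in the sources used here. The part of such reads in the low levels was not tested. The 7 nuclear copies themselves held few counts, 1257, 1019 and 813 in shNT and 1048, 1504 and 1455 in the libraries labelled shIGF2BP1 in sum. When CPM was divided by the number of windows found nowhere else, mt-Co1 had 13870 CPM per 1000 such windows, mt-Nd2 5023, mt-Cytb 4360, mt-Nd1 4329 and mt-Nd4 4243. mt-Nd5 had 804 and mt-Nd6 565. The scale treats shared windows as giving no counts, yet mt-Co2, with 0 unshared windows, held 1304 to 3181 counts per library. The values of mt-Co1 and mt-Nd4, which share many windows, may therefore be too high. mt-Atp8, with 152 windows and all of them found nowhere else in the annotated transcripts, had 56.7 and so stayed low on this scale too. This scale does not cover its overlap of 43 bases with mt-Atp6. How reads that touch both genes were counted is not given in the sources used here, and their part in the low level was not tested. Levels of the 6 low genes are levels of counted reads and are not set against those of their neighbours as amounts of RNA.

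**Figure D5:**
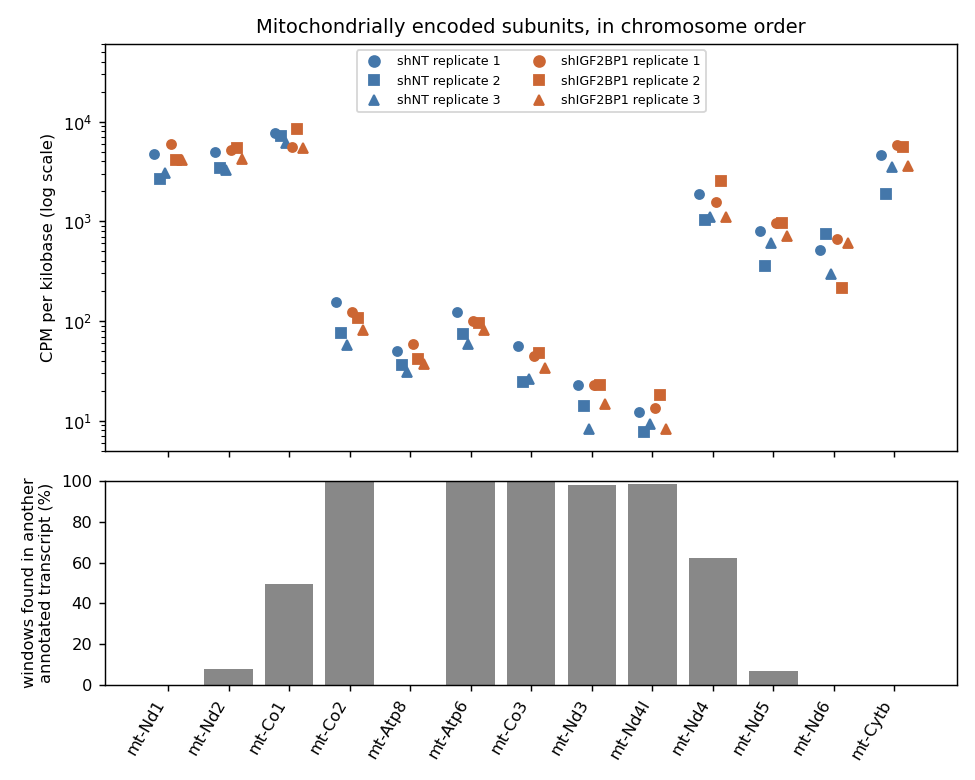
Upper panel: CPM per kilobase (log scale) of the 13 mitochondrial subunits in each library, in the order of the chromosome; lower panel: percent of each transcript's 53-base windows found in another annotated transcript. The 6 genes from mt-Co2 to mt-Nd4l lie at means of 11.5 to 101 CPM per kilobase, and 5 of them share 98.0% to 100% of their windows.

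Between the groups these 6 genes had log2 fold changes of 0.10 to 0.44, all positive and none called. mt-Nd3 had 7.95, 4.93 and 2.90 CPM in shNT and 7.94, 7.97 and 5.11 CPM in the libraries labelled shIGF2BP1. mt-Nd4l, at 2.92 ± 0.692 and 3.94 ± 1.44 CPM (SD, n = 3 each), was the lowest of all 13. Without shNT replicate 3 mt-Co2 turned to -0.15, mt-Atp6 to -0.11 and mt-Nd3 to 0.12, and without shNT replicate 1 they were 0.65, 0.47 and 0.84.

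The genes that build and serve the chain were read from further lists, and none of their members was called. Among 12 other subunits and carriers tested, 8 had a positive sign, with a median of 0.12. Coq10b, a coenzyme Q binding protein, had 23.3, 26.8 and 58.4 CPM in shNT and 14.2, 13.6 and 19.2 CPM in the libraries labelled shIGF2BP1 (log2 fold change -1.21, edgeR adjusted p = 0.497). Of 48 assembly factors 28 were positive, with a median of 0.05; Ndufaf6, which helps to assemble complex I, had a log2 fold change of 0.52 and Cox20, a chaperone of cytochrome oxidase subunit 2, had -0.65. Of 33 genes for mitochondrial DNA expression 20 were positive, with a median of 0.06. Mterf4, which serves mitochondrial ribosome assembly, had the smallest p of that list (0.0745 in edgeR, unadjusted), and its log2 fold change was 0.56.

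Of the 11 tested regulators of mitochondrial biogenesis 3 were positive and 8 negative, with a median of -0.13 from all 6 libraries. Ppargc1a, the coactivator PGC-1alpha, had 1.28, 5.49 and 3.39 CPM in shNT and 0.916, 0.851 and 0.656 CPM in the libraries labelled shIGF2BP1. The groups did not overlap, and the log2 fold change was -2.06 ± 0.57 (edgeR adjusted p = 0.478). Gabpb2, a partner of GABPA, had 94.2, 190.5 and 216.8 CPM in shNT and 104.5, 89.8 and 90.1 CPM in the libraries labelled shIGF2BP1. Its groups overlapped (log2 fold change -0.82, edgeR adjusted p = 0.606). Pprc1, a relative of PGC-1alpha, had a log2 fold change of -0.43 without overlap (edgeR adjusted p = 0.734).

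In the citric acid cycle and its entry, 9 of 20 tested genes were positive, with a median of -0.02. Pdha1, the E1 alpha subunit of pyruvate dehydrogenase, had 410, 360 and 345 CPM in shNT and 213, 196 and 258 CPM in the libraries labelled shIGF2BP1. The groups did not overlap, and the log2 fold change of -0.74 ± 0.21 had an edgeR adjusted p of 0.497. Of 26 genes of protein import into mitochondria 19 were positive, with a median of 0.10, and Tomm22, a receptor of the outer membrane, had 95.7, 92.5 and 59.5 CPM in shNT and 146.5, 119 and 146.9 CPM in the libraries labelled shIGF2BP1 (log2 fold change 0.74, edgeR adjusted p = 0.533).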

How the data were processed

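Poly-A RNA of 6 libraries was sequenced in pairs of 53 cycles with a stranded kit, per the labels' protocols. The authors deposited a table of raw counts per Ensembl gene, aligned with HISAT2 2.1.0 to GRCm38 and counted with HTSeq, per the submitters' processing notes; the sources used here give no annotation release, strand setting or filter. Of 43721 rows, 92 spike-in rows held 0 counts and were dropped, and 42462 of 43629 gene IDs matched GENCODE vM21, the rest holding 0.155% of counts. Genes were kept by filterByExpr (minimum count 10) and tested in edgeR 4.0.16 (TMM, robust quasi-likelihood, 3 against 3, Benjamini-Hochberg over 13445 genes); the common biological coefficient of variation was 0.29. The script was tested on simulated data. Alternatives were other scalings, filters and thresholds, a replicate block, DESeq2 1.42.0, limma-voom (limma 3.58.1) and leaving out each library. No 2 libraries agreed within sampling noise.

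Exon length is the union of basic protein-coding transcripts. Named genes were all 13 mitochondrial members, the 2 highest nuclear ones per complex, the tissue forms and Igf2bp1. Added were the 6 nuclear members of smallest p and the 6 of largest difference at a mean CPM of 5 or more. Each further list gave up to 3 genes, those with its smallest p. Members and lists were chosen with earlier results of these data known. Promoters are from RefSeq, GRCm38.p6.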

Additional observations from a re-analysis of the deposited data

How the results depend on the processing

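The count of called members was 0 in the edgeR fit and 1, Ndufa12, with no filter on low counts, with DESeq2 and with the replicate number as a block; the other alternatives gave 0, including each left-out library (0 to 0). Calls over all genes were 3 in the edgeR fit, 138 with no filter, 82 with DESeq2, 18 with the block and 1 with limma-voom or at a mean CPM of 5 or more. With the block the adjusted p of Ndufa12 was 0.0468. The pairing was looked at by the correlation of deviations between libraries of 1 number, which was 0.193, -0.0936 and 0.275. Between libraries of different numbers it ran from -0.368 to 0.215, and some libraries correlated best with another number. Deviations from the mean of 3 libraries are tied to each other, so these correlations cannot settle whether the numbers pair the libraries.

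Leaving out each library, the mitochondrial to nuclear log2 ratio ran from -0.01 to 0.38, the nuclear median from -0.005 to 0.29 and the mitochondrial median from 0.12 to 0.65. The ratio was -0.35 when the median log2 CPM of each class was used, where the middle gene of the 13 mitochondrial ones by level is mt-Nd6 in every library. Without mt-Co1, chosen after seeing the data, it was 0.41. With library size only, the median of all genes was 0.07. Of 37 tested genes, 36 members named by the rule and Igf2bp1, 23 kept 1 sign in all alternatives and 1, Ndufa12, was called in any. A biological coefficient of variation of 0.29 with 3 libraries a group limits what could be called.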

Other observations

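The mitochondrial ribosomal RNAs, which are no members, differed from each other in the order of the libraries. mt-Rnr1, the small ribosomal RNA, had 387, 400 and 527 CPM in shNT and 444, 537 and 412 CPM in the libraries labelled shIGF2BP1, and was highest in the 2 libraries with least mt-Nd6. mt-Rnr2, the large one, had 651, 535 and 671 CPM against 869, 615 and 600 CPM. It was highest in shIGF2BP1 replicate 1 and lowest in shNT replicate 2, as were mt-Nd1 and mt-Cytb. mt-Nd2 and mt-Co1 were instead highest in shIGF2BP1 replicate 2. The libraries were made from poly-A RNA, and how far these ribosomal RNAs were captured was not tested.

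The 8 transfer RNA genes of the light strand held 714, 896 and 328 counts in shNT and 801, 340 and 567 in the libraries labelled shIGF2BP1. In CPM these were 24.1, 26.3 and 9.92 against 30.6, 9.65 and 20.7, so shNT replicate 3 and shIGF2BP1 replicate 2 were the lowest, the same 2 libraries in which mt-Nd6 was lowest. The tRNA genes were looked at after mt-Nd6 had been seen to vary. Their capture in these poly-A libraries was not tested either.

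Ratios within the mitochondrial chromosome, also looked at after the values were seen, did not depend on the scaling. mt-Nd5 over mt-Co1 was 0.122, 0.0586 and 0.116 in shNT and 0.203, 0.134 and 0.154 in the libraries labelled shIGF2BP1, and mt-Cytb over mt-Co1 was 0.447, 0.195 and 0.419 against 0.775, 0.484 and 0.492. Neither overlapped between the groups, while mt-Nd4 and mt-Nd1 over mt-Co1 did. No test was run on these ratios, and the share of other gene pairs whose ratio separates the groups was not worked out. By single gene, 6.06% of all tested genes lay wholly higher and 5.59% wholly lower in the libraries labelled shIGF2BP1. mt-Co1, the common denominator, shares 49.6% of its windows with other annotated transcripts.

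Gm10925, the nuclear copy of mt-Atp6, had 901 counts in shIGF2BP1 replicate 3 and 299 to 467 in the other 5 libraries, while mt-Atp6 itself was not high there (54.9 CPM, within the range of 39.8 to 84.4 CPM over the libraries).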
